A study of Homo sapiens with 6 samples.

Results

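The heat shock chaperones described here are 34 genes of the cytosolic and mitochondrial protein-folding machinery, taken by symbol from a count table of 57773 genes and read in 6 tumours. All 34 were in the table, and all 34 passed the low-count filter that left 21308 genes for testing. The tumours were grown under the skin of nude mice, which lack T cells and keep their other host tissues, from PATU, a human pancreatic ductal adenocarcinoma line. All the tumours were labelled PATU-ishME3, for PATU cells that carry a short hairpin against the malic enzyme gene ME3 that doxycycline (dox) switches on. In the 4 off-dox tumours the hairpin was not induced, and in the 2 on-dox tumours it was. The drug, the hairpin and any loss of ME3 therefore cannot be told apart in this contrast. The labels give no dox dose, time on dox or mouse age, and do not say how many mice carried the tumours or whether the line is a single clone.

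Heat shock proteins bind unfolded stretches of other proteins and keep them from clumping while they fold. The HSP70 family does this in an ATP-driven cycle in which J-domain proteins deliver the client and exchange factors release it, HSP90 takes over late-folding clients such as kinases and steroid receptors, small heat shock proteins hold clients without ATP, and chaperonins enclose them in a cage. Part of the family is made at all times. Another part is switched on when heat shock factor 1, encoded by HSF1, binds heat shock elements, inverted repeats of GAA, in the promoters. Carcinomas often hold these genes at a raised level.

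Library totals ran from 23855338 to 26885699 counts. ME3, the targeted gene, had 37.9 to 44.2 CPM (counts scaled to a common library size with TMM factors) off dox and 33.3 and 28.5 CPM in on-dox tumours 1 and 2, a log2 fold change of -0.41 (SE 0.12, edgeR adjusted p = 0.148). ME2, the malic enzyme gene whose deletion the series title names, had 19.5 to 21.6 CPM off dox and 28.7 and 20.3 CPM on dox. Of 7 ductal carcinoma markers, KRT8 (690.3 to 1049.8 CPM) and KRT18 (368 to 506 CPM) were abundant, EPCAM, CDH1 and MUC1 were lower, KRT7 stayed at or below 1.58 CPM, and KRT19, a usual ductal keratin, had no counts in 5 tumours and 0.0387 CPM in on-dox tumour 1. Libraries stood apart in 3 ways, whose part in the chaperone values was not tested. The summed level of 14 skeletal muscle markers was 1078 CPM in off-dox tumour 4 and 107 CPM in off-dox tumour 2, against 3.39 to 24.3 CPM in the other tumours. Of these, MYL1 was at 0 in off-dox tumours 1 and 3 and in both on-dox tumours, and none of the 13 tested was called. The summed level of 7 fibroblast markers was 800.02 CPM in off-dox tumour 1, while its off-dox peers had 145 to 293 CPM, with 130.05 and 318 CPM on dox. COL1A1 made up 352 CPM of the highest sum, LUM was at 0 in off-dox tumours 1 and 3 and on-dox tumour 1, and none of the 6 tested was called. On-dox tumour 1 had 0.529% of its counts in 13 mitochondrial mRNAs and 4.08% in MALAT1 and NEAT1, against 0.222% to 0.276% and 1.48% to 2.33% elsewhere.

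Off dox, the constitutive cytosolic chaperones led when levels were divided by exon length. HSP90AB1, the constitutive HSP90, stood at 498 ± 40.01 CPM per kilobase of exon (SD, n = 4), and HSPA8, the constitutive HSP70, at 428 ± 54.2 CPM per kilobase (SD, n = 4). Their ranges overlapped, at 459.8 to 551 and 388 to 504 CPM per kilobase, so their order was not resolved. HSP90AA1, the inducible HSP90, followed at 232 ± 17.7 CPM per kilobase (SD, n = 4), and HSPD1, the mitochondrial chaperonin HSP60, at 124 ± 12.1 CPM per kilobase (SD, n = 4), each in a range of its own. At the low end were the small heat shock proteins, the ubiquitin ligase STUB1 and the testis-enriched HSP70 HSPA2. HSPB1 had 5.90 ± 0.851, STUB1 4.85 ± 0.500, CRYAB 1.03 ± 0.938, HSPA2 0.959 ± 0.218 and HSPB8 0.501 ± 0.168 CPM per kilobase (SD, n = 4 each). The last 3 overlapped in range. The HSPB1 range, 4.71 to 6.71 CPM per kilobase, overlapped those of STUB1 (4.37 to 5.46) and TRAP1 (6.38 to 7.26). The lengths came from another annotation release than the one counted, and extra exons can lower the value of some genes, so only large gaps in this order carry information.

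**Figure D1:**
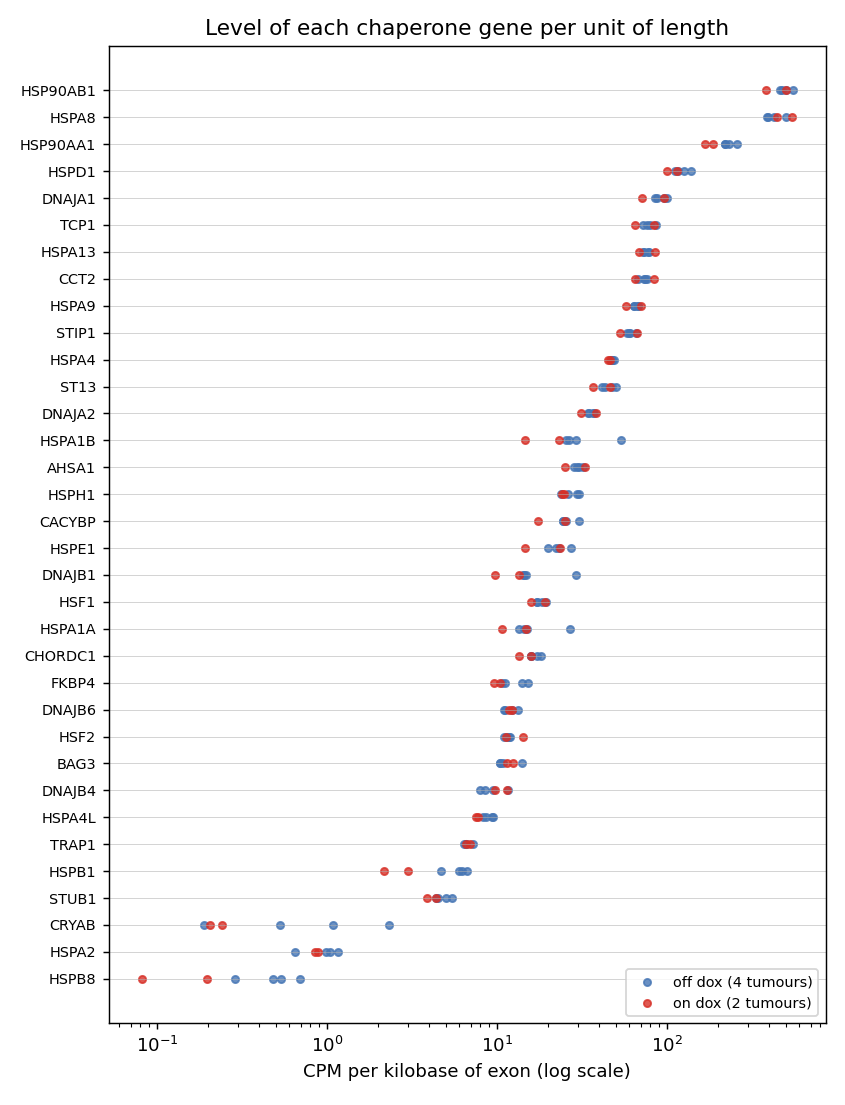
Level of each of the 34 genes in CPM per kilobase of exon on a log axis, 1 point per tumour, blue for the 4 off-dox and red for the 2 on-dox tumours, ordered by the off-dox mean. HSP90AB1 and HSPA8 are at the top, HSPB8, HSPA2 and CRYAB at the bottom, and both on-dox points of HSPB1 and of HSPB8 lie left of all off-dox points.

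Across the contrast, HSPB1 was the only one of the 34 genes called by edgeR, and it fell. That is 1 of 34 members (2.94%), where 1.06% of the 21308 tested genes were called in either direction and 0.591% were called lower, at an adjusted p under 0.05. DESeq2 called 3 members, HSPB1, HSPB8 and HSP90AA1, and 3.37% of the same 21308 genes. With no low-count filter edgeR called 5 members, adding HSPB8, CRYAB, HSPA1B and DNAJB1, and 1.96% of 39242 genes. An edgeR unadjusted p under 0.05 was held by 8 of the 34 members (23.5%), HSPB1 among them, against 14.3% of all tested genes. The log2 fold change was below 0 in 26 members and above 0 in 8, with a median of -0.15. Over all tested genes the median was -0.0031, with 50.4% below 0. In 8 members (23.5%) the on-dox values were both under the lowest off-dox value, a pattern held by 11.5% of tested genes (23% in either direction). No member lay above in both. The lower median rested on 1 tumour: leaving out on-dox tumour 1 gave 0.012, with 16 members below 0, while leaving out on-dox tumour 2 gave -0.24, with 31 below 0.

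**Figure D2:**
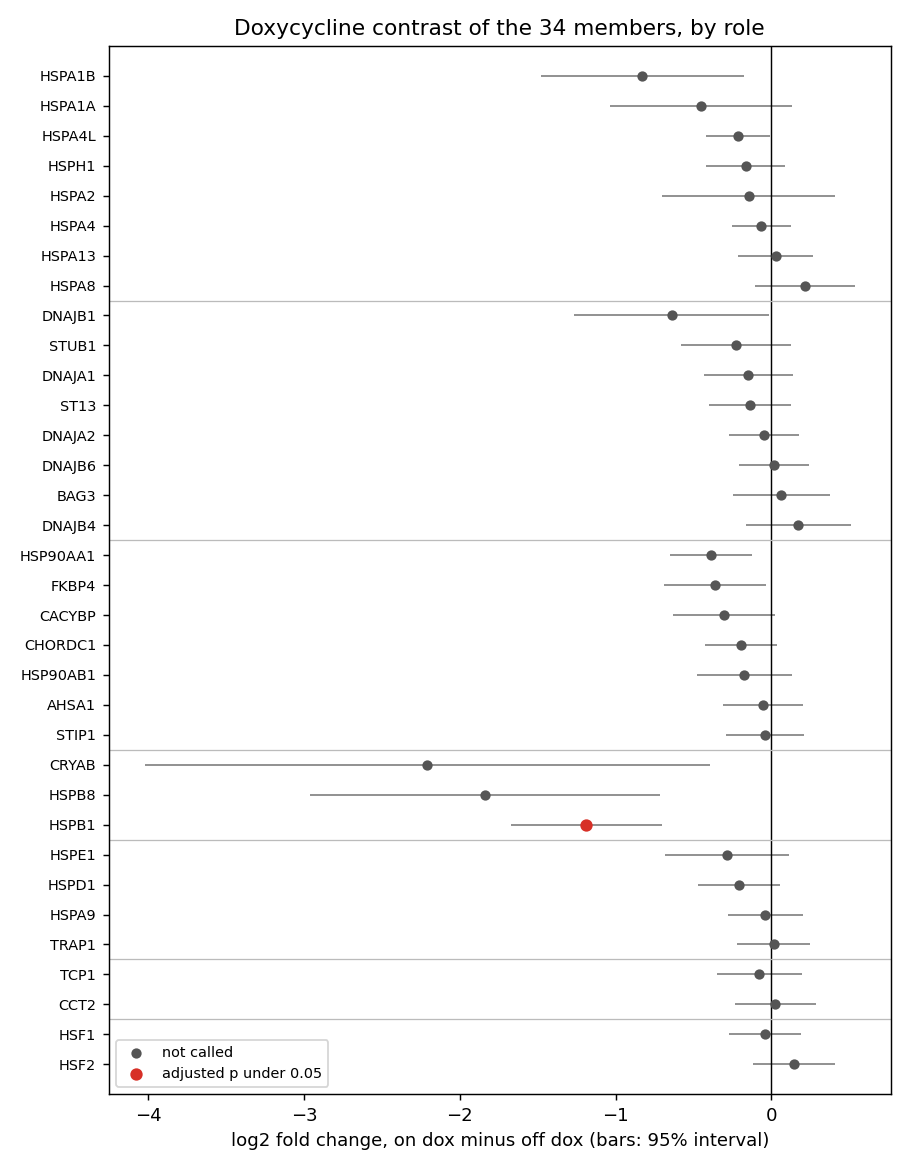
Log2 fold change (on dox minus off dox) of each of the 34 genes with its 95% interval, grouped by role and separated by grey lines, with the called gene in red. The 3 small heat shock proteins lie farthest left, HSPB1 is called, and most other intervals include 0.

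The small heat shock proteins gave the largest differences, and HSPB1 (ENSG00000106211) alone passed the test. HSPB1, also called HSP27, holds unfolded clients and binds actin filaments. It stood at 10.96, 9.77, 7.70 and 10.1 CPM in off-dox tumours 1 to 4 and at 3.56 and 4.90 CPM in on-dox tumours 1 and 2. Both on-dox tumours lay below the whole off-dox range. It fell 2.28-fold, a log2 fold change of -1.19 (SE 0.22, 95% interval -1.67 to -0.71, edgeR adjusted p = 0.0356). A two-sided exact permutation of its CPM, with 15 ways to split the tumours, reached p = 0.0667, the lowest value possible with 4 against 2. Leaving out off-dox tumour 1, 2 or 4 or on-dox tumour 1 ended the call (adjusted p = 0.0814, 0.096, 0.071 and 0.165), while the log2 fold change stayed between -1.44 and -0.97. HSPB1 was highest in off-dox tumour 1, which had the lowest sum of muscle markers, 3.39 CPM, and the highest sum of fibroblast markers, 800.02 CPM. It was lowest in on-dox tumour 1, which had the lowest fibroblast sum, 130.05 CPM. Between these extremes the order differed. Off-dox tumour 4, with a fibroblast sum of 145 CPM, had HSPB1 at 10.1 CPM, and on-dox tumour 2, with 318 CPM, had it at 4.90 CPM. The part of host cells in its level was not tested. Of the runs of 50 bases in its transcript, 11.4% recur in other annotated genes, chiefly the pseudogene HSPB1P1.

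HSPB8 (ENSG00000152137), which works with BAG3 in clearing misfolded proteins, had 1.38, 1.54, 0.823 and 1.98 CPM off dox and 0.232 and 0.567 CPM on dox. The groups did not overlap, but the counts were low (6 and 14 on dox, 20 to 52 off dox) and the log2 fold change of -1.84 (SE 0.51) did not pass (edgeR adjusted p = 0.128), though DESeq2 called it (adjusted p = 0.0386). Leaving out on-dox tumour 1 gave -1.33, and leaving out the other gave -2.61. CRYAB (ENSG00000109846), alpha B-crystallin, a desmin-binding chaperone of muscle and lens, had 0.577, 3.28, 1.61 and 7.06 CPM off dox and 0.620 and 0.729 CPM on dox. The groups overlapped, because off-dox tumour 1 was below both on-dox tumours. CRYAB counts were low too, at 15, 81, 39 and 185 off dox and 16 and 18 on dox. Its log2 fold change was -2.21 (SE 0.82, edgeR adjusted p = 0.252), and -1.42 without off-dox tumour 4. CRYAB was highest in off-dox tumours 4 and 2, the 2 with the most skeletal muscle transcript, and lowest in off-dox tumour 1, the one with the least. HSPB8, also abundant in muscle, was highest in the same 2 tumours, but its order differed in the others. Off-dox tumour 1, with the lowest muscle sum (3.39 CPM), had HSPB8 at 1.38 CPM, and on-dox tumour 2 (24.3 CPM) had it at 0.567 CPM. Whether host muscle reads made up these counts was not tested, and in bulk tumours fewer cells of a type and less RNA per cell cannot be told apart.

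**Figure D3:**
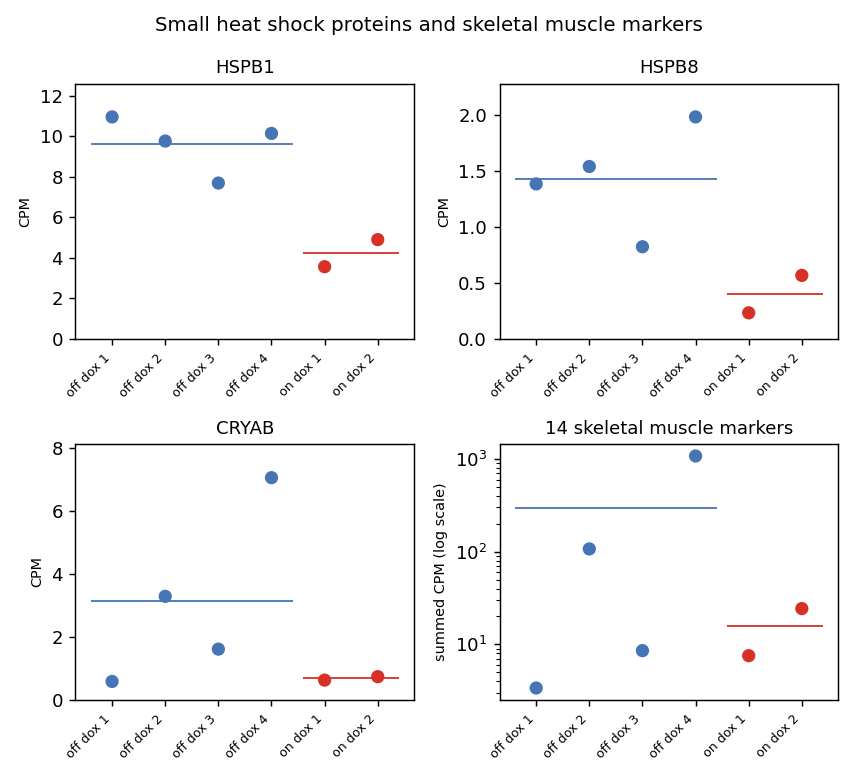
CPM of HSPB1, HSPB8 and CRYAB and the summed CPM of 14 skeletal muscle markers (log axis) in each tumour, blue off dox and red on dox, with lines at the group means. HSPB1 and HSPB8 are lower in both on-dox tumours, while CRYAB and the muscle sum peak in off-dox tumour 4.

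The promoter windows of the pair whose groups did not overlap are shown, from RefSeq on GRCh38.p14 (hg19 is the build named for the counts), as 250 bases before and 50 bases after the annotated start, read along the gene's strand. Capitals mark each match to GAANNTTC or TTCNNGAA, the 2 arrangements of a facing pair of heat shock element units. HSPB1 lies at chr7:76302423-76302722 on the plus strand and HSPB8 at chr12:119178681-119178980 on the plus strand.
HSPB1: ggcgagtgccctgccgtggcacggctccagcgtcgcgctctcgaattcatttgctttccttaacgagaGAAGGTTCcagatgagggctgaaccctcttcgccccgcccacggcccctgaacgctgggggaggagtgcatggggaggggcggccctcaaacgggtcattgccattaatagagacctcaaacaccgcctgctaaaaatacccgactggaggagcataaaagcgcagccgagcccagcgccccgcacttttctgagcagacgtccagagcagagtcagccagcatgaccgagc
HSPB8: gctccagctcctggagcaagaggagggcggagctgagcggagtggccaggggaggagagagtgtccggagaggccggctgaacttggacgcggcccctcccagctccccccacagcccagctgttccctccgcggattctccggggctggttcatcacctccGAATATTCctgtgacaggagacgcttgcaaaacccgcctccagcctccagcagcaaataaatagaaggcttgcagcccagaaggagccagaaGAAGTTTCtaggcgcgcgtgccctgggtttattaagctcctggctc
Counted from the start as 0, HSPB1 held 1 match at position -182, and HSPB8 held 2, at -88 and 4.

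The heat-inducible HSP70 genes and their J-domain partner were set apart by 1 off-dox tumour, and none passed the test. HSPA1B (ENSG00000204388) had 135, 67.1, 64.2 and 73.9 CPM in off-dox tumours 1 to 4 and 36.9 and 58.9 CPM on dox. HSPA1A (ENSG00000204389) had 67.2, 35.6, 33.5 and 37.5 CPM off dox and 26.7 and 36.9 CPM on dox. DNAJB1 (ENSG00000132002), the HSP40 that starts the HSP70 cycle, had 107, 54.8, 52.8 and 52.2 CPM off dox and 35.9 and 49.8 CPM on dox. In all 3 genes off-dox tumour 1 stood apart, at 1.97, 1.89 and 2.01 times the mean of the other off-dox tumours, and on-dox tumour 1 was lowest. The groups did not overlap in HSPA1B and DNAJB1 and overlapped in HSPA1A.

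The log2 fold change was -0.83 (SE 0.29, edgeR adjusted p = 0.231) for HSPA1B. For HSPA1A it was -0.45 (SE 0.26, adjusted p = 0.482), and for DNAJB1 -0.64 (SE 0.28, adjusted p = 0.338). Without off-dox tumour 1 these became -0.51, -0.16 and -0.31, and without on-dox tumour 1 -0.53, -0.24 and -0.42. BAG3, the exchange factor that links HSP70 to HSPB8 and is also heat-inducible, had 38.7 CPM in off-dox tumour 1 and 29.9, 28.8 and 28.8 CPM in off-dox tumours 2 to 4. On dox it had 31.7 and 34.3 CPM, for a log2 fold change of 0.06 (SE 0.14, edgeR adjusted p = 0.886). HSPA6, the strictly inducible HSP70 and no member of the list, had 24.3, 6.73, 5.97 and 3.89 CPM off dox and 1.82 and 3.28 CPM on dox. Its log2 fold change was -2.003 (SE 0.68, edgeR adjusted p = 0.21), and -1.11 without off-dox tumour 1. These 5 genes were highest in the same off-dox tumour, which was also the one with the highest fibroblast sum. HSP90AA1, also inducible, was not: its off-dox maximum was in tumour 4, and tumour 1 stood at 0.933 times the mean of the others. The fibroblast sum of tumour 1 was mostly COL1A1, COL1A2 and COL3A1 transcript. Of the other fibroblast markers, PDGFRB was lowest off dox in that tumour, LUM was at 0, and DCN and PDGFRA were highest there at low levels. The part that fibroblast content played was not tested.

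**Figure D4:**
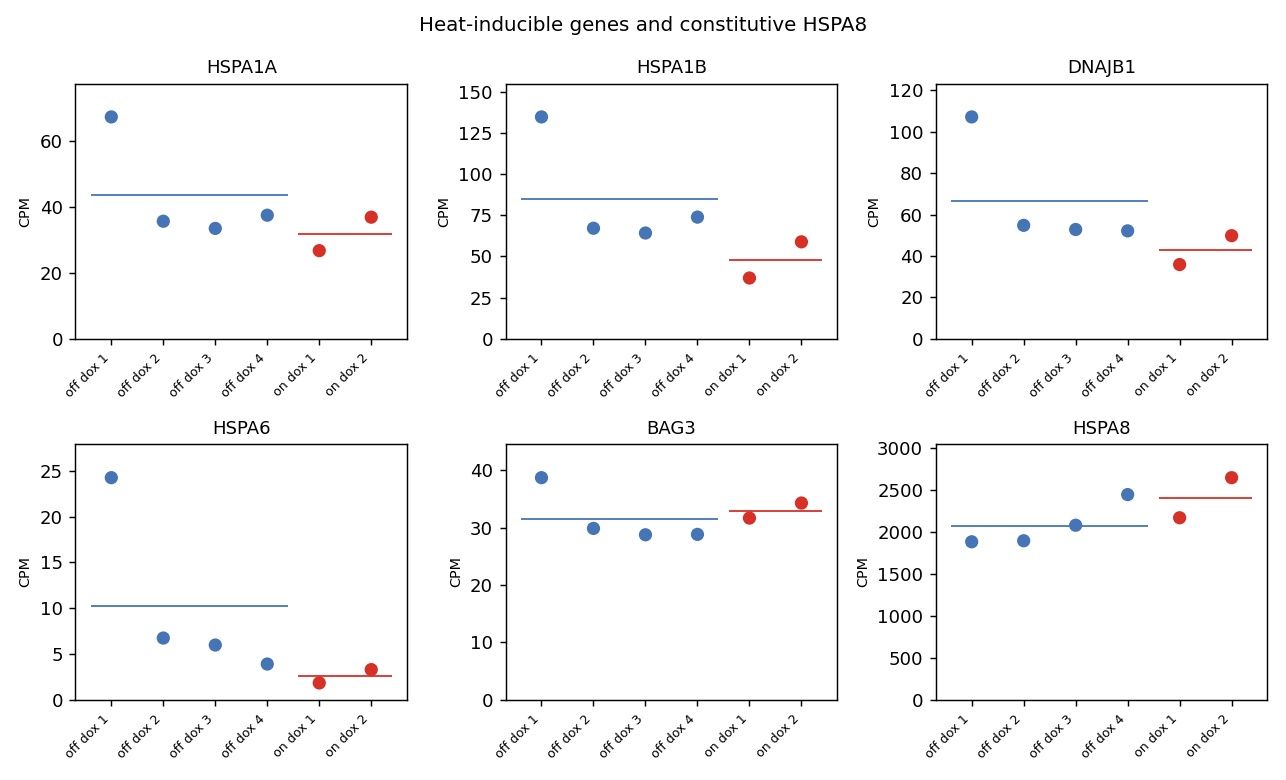
CPM of the heat-inducible genes HSPA1A, HSPA1B, DNAJB1, HSPA6 and BAG3 and of the constitutive HSPA8 in each tumour, blue off dox and red on dox, with lines at the group means. Off-dox tumour 1 is the highest point of the 5 inducible genes plotted and, by a narrow gap, the lowest of HSPA8.

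HSPA1A and HSPA1B are neighbouring copies that encode nearly the same protein, and a counter can drop or split reads that match both. Of all runs of 50 bases in the longest coding transcript of HSPA1A, 72.6% were also in a transcript of HSPA1B, and 71.4% the other way round. Their counts were therefore also summed, which gave 202, 103, 97.7 and 111 CPM off dox and 63.6 and 95.7 CPM on dox. The on-dox values were below the off-dox range, that of tumour 2 by a narrow gap, and the log2 fold change was -0.69 (SE 0.28, edgeR adjusted p = 0.297; -0.38 without off-dox tumour 1; -0.42 with on-dox tumour 1 left out). The ratio of HSPA1A to HSPA1B counts was steady off dox, at 0.499 to 0.531, and higher on dox, at 0.724 and 0.626 (two-sided exact permutation p = 0.0667, the smallest possible here). With most of the sequence shared, this ratio describes the counts assigned to each row.

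The windows of HSPA1A, HSPA1B and DNAJB1 are shown because these genes were highest in the same off-dox tumour, beside that of HSPA8, which was not. They lie at chr6:31815293-31815592 on the plus strand, chr6:31827488-31827787 on the plus strand, chr19:14518348-14518647 on the minus strand (the middle of 3 annotated starts) and chr11:123062087-123062386 on the minus strand, with capitals as above.
HSPA1A: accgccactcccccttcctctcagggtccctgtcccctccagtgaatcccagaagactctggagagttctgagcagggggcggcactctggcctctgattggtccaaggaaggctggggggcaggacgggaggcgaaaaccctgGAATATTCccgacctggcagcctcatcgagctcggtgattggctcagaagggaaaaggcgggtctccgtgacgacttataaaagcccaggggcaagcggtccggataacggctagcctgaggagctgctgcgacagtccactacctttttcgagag
HSPA1B: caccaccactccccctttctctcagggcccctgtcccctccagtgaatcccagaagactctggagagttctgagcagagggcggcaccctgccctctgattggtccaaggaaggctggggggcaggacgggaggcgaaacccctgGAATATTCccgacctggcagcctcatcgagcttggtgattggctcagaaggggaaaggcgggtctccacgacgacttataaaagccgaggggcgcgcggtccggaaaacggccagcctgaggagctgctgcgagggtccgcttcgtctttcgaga
DNAJB1: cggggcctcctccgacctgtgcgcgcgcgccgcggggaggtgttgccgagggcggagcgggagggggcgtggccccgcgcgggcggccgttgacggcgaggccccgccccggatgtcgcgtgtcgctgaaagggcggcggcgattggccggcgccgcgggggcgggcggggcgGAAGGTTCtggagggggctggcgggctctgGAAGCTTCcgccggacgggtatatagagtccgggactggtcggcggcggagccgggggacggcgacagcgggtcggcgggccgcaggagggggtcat
HSPA8: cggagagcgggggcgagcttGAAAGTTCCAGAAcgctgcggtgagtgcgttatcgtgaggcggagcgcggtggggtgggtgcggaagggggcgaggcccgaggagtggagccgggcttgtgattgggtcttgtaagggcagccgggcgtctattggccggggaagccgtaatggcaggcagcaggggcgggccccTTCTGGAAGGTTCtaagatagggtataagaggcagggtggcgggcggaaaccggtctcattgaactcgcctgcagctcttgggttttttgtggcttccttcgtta
The first 2 windows had 277 identical bases among 299 aligned, and each held 1 match, at positions -106 and -105. DNAJB1 held 2, at -77 and -47, and HSPA8 held 4, from -230 to -50, in overlapping pairs.

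Over the promoters of 29 members that RefSeq windows covered, 18 genes (62.1%) held at least 1 such match on either strand in any of their windows, against 16.2% of 27305 genes. Counted by window, it was 44.2% of 43 against 13.5% of 35116. A run of 3 alternating units, GAA and TTC with 2 bases between them, was in 7 members (24.1%) and in 0.608% of all genes. The 7 with such a run were HSPA8, HSP90AA1, HSP90AB1, HSPD1, DNAJA1, DNAJB6 and CHORDC1. The median log2 fold change was -0.17 over these 7, -0.18 over the 18 with any match and -0.06 over the 11 with none. Matches outside the windows were not counted, and the 11 include HSPH1, BAG3 and HSPE1, which lies head to head with HSPD1. CRYAB, FKBP4, HSF1, ST13 and STUB1 had no window. Off-dox tumour 1 was the highest off-dox tumour in 1 of the 7, 7 of the 18 and 5 of the 11.

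Among the other HSP70 and HSP110 genes no call was made. HSPA8 (ENSG00000109971) had 1883, 1895, 2080.2 and 2446 CPM off dox and 2169.5 and 2648 CPM on dox, overlapping groups with a log2 fold change of 0.21 (SE 0.15, edgeR adjusted p = 0.551). Leaving out on-dox tumour 2 gave 0.06, and leaving out the other 0.35. Off-dox tumour 1, highest in HSPA1B, had nearly the same HSPA8 level as off-dox tumour 2. HSPH1, the HSP110 that exchanges HSP70's nucleotide, had 256, 218, 199.8 and 247 CPM off dox and 209 and 202 CPM on dox, overlapping by the lowest off-dox value (log2 fold change -0.16, SE 0.11, edgeR adjusted p = 0.565). Its relatives HSPA4L and HSPA4 did not overlap between groups, but the gaps were small. HSPA4L had 109.6, 108.5, 96.1 and 100.03 CPM off dox and 90.3 and 88.0 CPM on dox (a log2 fold change of -0.22, SE 0.09, edgeR adjusted p = 0.325). HSPA4 had 242, 244, 246 and 251 CPM off dox and 231 and 239 CPM on dox (a log2 fold change of -0.07, SE 0.09, edgeR adjusted p = 0.791), the narrowest off-dox range of all members, 1.04-fold. HSPA2 had 3.77 to 6.73 CPM off dox and 5.11 and 4.90 CPM on dox, inside that range. HSPA13, a microsomal HSP70 relative, had 305 to 327 CPM off dox and 287 and 358 CPM on dox (a log2 fold change of 0.03).

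**Figure D5:**
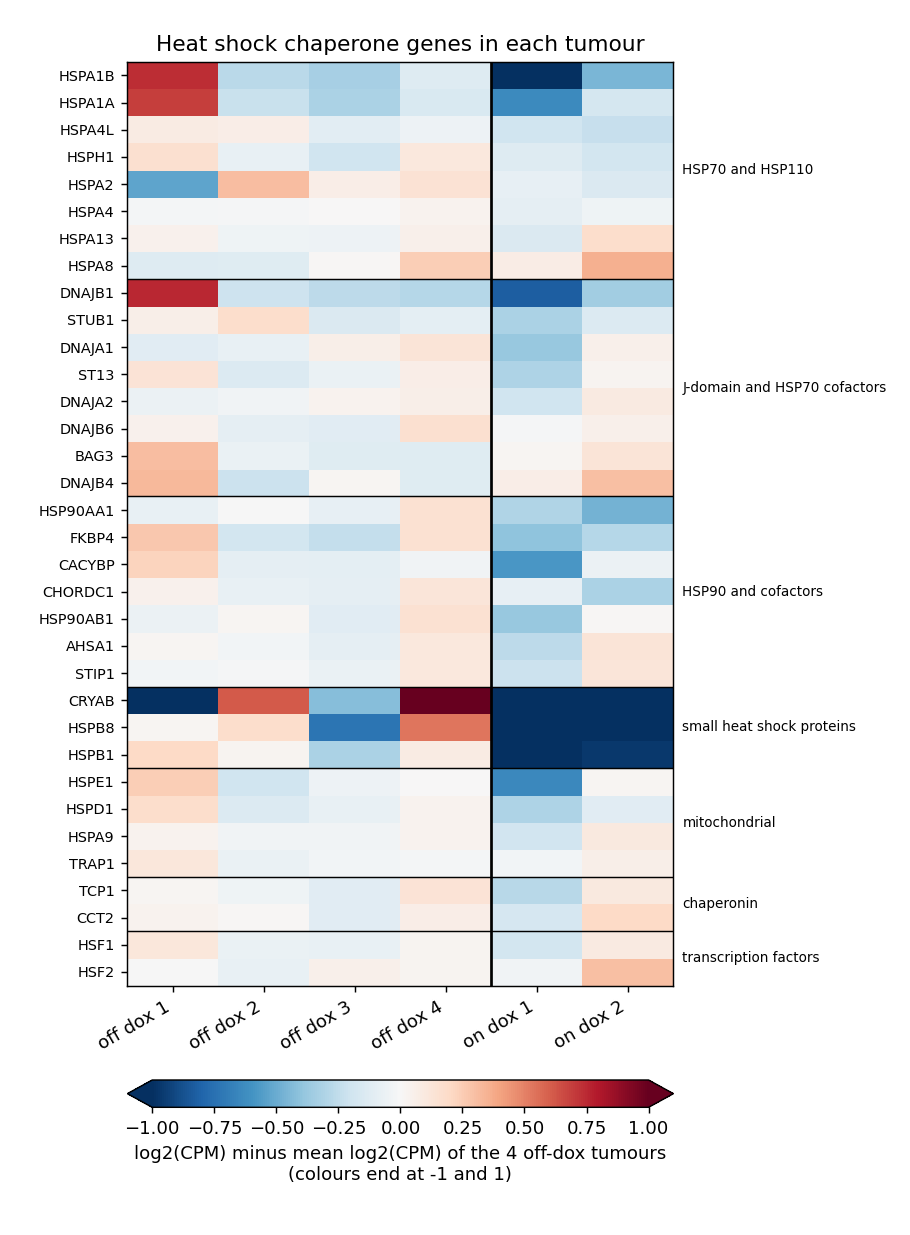
Each gene's log2 CPM minus its off-dox mean in the 6 tumours, by role, red above and blue below that mean, with the off-dox and on-dox tumours parted by a black line. HSPA1A, HSPA1B and DNAJB1 are highest in off-dox tumour 1, most rows are blue in on-dox tumour 1, and the small heat shock proteins are blue in both on-dox tumours.

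The J-domain proteins and HSP70 cofactors other than DNAJB1 and BAG3 stayed close to their off-dox range. DNAJA1, which carries unfolded clients to HSP70, had 233, 239, 263 and 275 CPM off dox and 194 and 261 CPM on dox (a log2 fold change of -0.15, SE 0.13, edgeR adjusted p = 0.656). Its relative DNAJA2 had 174 to 188 CPM off dox and 158 and 193 CPM on dox (a log2 fold change of -0.05). In both, on-dox tumour 1 was the lowest of the 6. DNAJB4, a J-domain protein of the type II class, had 44.0, 30.3, 35.7 and 32.4 CPM off dox and 36.9 and 43.4 CPM on dox (a log2 fold change of 0.17, SE 0.15, edgeR adjusted p = 0.663). DNAJB6, a suppressor of aggregation, had 165 to 198 CPM off dox and 176 and 185 CPM on dox (a log2 fold change of 0.02). Both kept their on-dox values inside the off-dox range. ST13, the HSP70-interacting protein Hip, had 207, 172, 181 and 198 CPM off dox and 153 and 192 CPM on dox (a log2 fold change of -0.14, SE 0.12, edgeR adjusted p = 0.661), and 30.7% of the 50-base runs of its transcript recur in other annotated genes, the most after the HSPA1 pair. STUB1, the ubiquitin ligase CHIP that marks chaperone clients for destruction, had 11.7, 12.7, 10.1 and 10.5 CPM off dox and 8.99 and 10.2 CPM on dox (a log2 fold change of -0.23, SE 0.16, edgeR adjusted p = 0.566). Over the 8 genes of this role the adjusted p was 0.338 to 0.957.

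In the HSP90 group all 7 genes had a log2 fold change below 0 and none passed. That direction rested on on-dox tumour 1 for 3 of them, since leaving it out gave 0.013 for HSP90AB1, 0.12 for STIP1 and 0.13 for AHSA1. HSP90AA1 (ENSG00000080824) came closest, with 1155, 1214, 1149 and 1349 CPM off dox and 984 and 875 CPM on dox. The groups did not overlap, the log2 fold change was -0.39 (SE 0.12, 95% interval -0.65 to -0.13, edgeR adjusted p = 0.163), and the exact permutation p was again 0.0667. DESeq2 called it (adjusted p = 0.0281). With a tumour left out it stayed between -0.47 and -0.31. HSP90AB1 (ENSG00000096384) had 1419.6, 1498, 1370.3 and 1643 CPM off dox and 1135 and 1494 CPM on dox, overlapping groups (log2 fold change -0.17, SE 0.14, edgeR adjusted p = 0.625). The ratio of HSP90AA1 to HSP90AB1 counts was 0.811 to 0.839 in the off-dox tumours and 0.867 and 0.586 in on-dox tumours 1 and 2, so the on-dox tumours departed from that narrow range in opposite directions.

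Differences in the HSP90 cofactors were no larger, and none passed the test. FKBP4, the immunophilin of steroid receptor complexes, had 79.4, 57.9, 55.6 and 73.2 CPM off dox and 49.7 and 53.9 CPM on dox, both under the off-dox range (log2 fold change -0.36, SE 0.15, edgeR adjusted p = 0.3). CACYBP, a partner of the HSP90 and ubiquitin systems, had 138, 111, 110.4 and 115 CPM off dox and 78.8 and 113 CPM on dox. Its log2 fold change of -0.30 (SE 0.15, edgeR adjusted p = 0.388) was -0.06 without on-dox tumour 1, and on-dox tumour 2 lay inside the off-dox range. CHORDC1, which binds HSP90, had 184, 169.7, 168.5 and 195 CPM off dox and 169 and 144 CPM on dox (a log2 fold change of -0.20, SE 0.11, edgeR adjusted p = 0.439). Here on-dox tumour 2 was the lower. STIP1 (Hop, the bridge from HSP70 to HSP90) and AHSA1 (the activator of HSP90's ATPase) had log2 fold changes of -0.04 and -0.06. Each had its lowest value in on-dox tumour 1 (245 and 74.1 CPM) and its highest in on-dox tumour 2 (309 and 96.9 CPM).

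The mitochondrial chaperones and the cytosolic chaperonin did not pass either. HSPD1 and HSPE1, the HSP60 and HSP10 whose genes lie head to head, form the matrix folding cage. HSPD1 had 592, 476, 496 and 537 CPM off dox and 423 and 485 CPM on dox (a log2 fold change of -0.21, SE 0.12, edgeR adjusted p = 0.462). HSPE1 had 54.1, 39.8, 44.0 and 45.6 CPM off dox and 29.1 and 46.2 CPM on dox (a log2 fold change of -0.29, SE 0.18, edgeR adjusted p = 0.518), and 0.011 without on-dox tumour 1. Both were highest in off-dox tumour 1 and lowest in on-dox tumour 1. HSPA9, the matrix HSP70 mortalin, and TRAP1, the mitochondrial HSP90, had log2 fold changes of -0.04 and 0.02. HSPA9 was lowest in on-dox tumour 1, at 477 CPM, and highest in on-dox tumour 2, at 583 CPM, around an off-dox range of 531 to 559 CPM. TRAP1 had 33.4 to 37.9 CPM off dox and 34.3 and 36.5 CPM on dox. TCP1 and CCT2, subunits of the chaperonin that folds actin and tubulin, were at -0.08 and 0.02. Off dox they had 358 to 424 and 291 to 331 CPM. Each was lowest in on-dox tumour 1, at 319 and 281 CPM. On-dox tumour 2 had TCP1 at 415 CPM, inside the off-dox range, and CCT2 at 363 CPM, above it.

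Neither regulator passed the test. HSF1 (ENSG00000185122) had 104, 91.7, 91.3 and 97.6 CPM off dox and 84.3 and 102 CPM on dox (a log2 fold change of -0.04, SE 0.10, 95% interval -0.27 to 0.19, edgeR adjusted p = 0.901). HSF2 (ENSG00000025156), a partner factor, had 31.1, 29.6, 32.2 and 31.8 CPM off dox and 30.4 and 38.5 CPM on dox (a log2 fold change of 0.14, SE 0.12, edgeR adjusted p = 0.643). On-dox tumour 2 lay above the HSF2 off-dox range and on-dox tumour 1 inside it. HSF1 acts mainly through changes to its protein, which these counts do not measure.

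The on-dox tumours stood differently against the off-dox tumours. In on-dox tumour 1, 24 of 34 members (70.6%) were below all 4 off-dox tumours, a position held by 29.3% of tested genes, and none was above. In on-dox tumour 2, 9 members (26.5%) were below all off-dox tumours, against 26.0% of tested genes, and 8 were above. On-dox tumour 1 was the lower of the pair in 29 of 34 members, against 48.9% of tested genes. This is the tumour with the raised share of mitochondrial mRNAs and of MALAT1 and NEAT1, and their part in these values was not tested. Off dox, 15 members (44.1%, against 28.2% of tested genes) were highest in tumour 1 and 16 (47.1%, against 26.1%) in tumour 4. The HSP90 and chaperonin groups peaked in tumour 4 (5 of 7 and 2 of 2) and 3 of the 4 mitochondrial chaperones in tumour 1. In 23 members the off-dox tumours spread over less than 1.3-fold. The share of all tested genes with so narrow a spread was not computed, so this is not shown to be particular to chaperones.

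Beyond the members, 71 other genes of the chaperone network were listed by function, of which 70 were in the table and 64 were tested. None was called in either direction by edgeR. There were 11 with an unadjusted p under 0.05, against 14.3% of all tested genes, and DESeq2 called 2, where it called 3.37% of all. The median log2 fold change was -0.10, with 43 below 0 and 21 above. Of the 64, 11 had both on-dox values under the off-dox range and 3 had both above it. Over all tested genes 11.5% lay under it, and 23% lay apart in either direction. The smallest p belonged to HSPA12A, a distant HSP70 relative, with 5.96, 4.82, 4.24 and 5.26 CPM off dox and 8.60 and 10.5 CPM on dox (a log2 fold change of 0.91, SE 0.20, edgeR adjusted p = 0.0624). Next came AHSA2, a relative of AHSA1, with 112, 109, 124 and 119.9 CPM off dox and 147 and 165 CPM on dox (a log2 fold change of 0.42, SE 0.09, edgeR adjusted p = 0.068). In both, the on-dox tumours lay above the off-dox range, and DESeq2 called both. The 4 that followed were lower in both on-dox tumours without passing: HSPBP1, FKBP8, SERPINH1 and SGTA. HSPBP1, an exchange factor of HSP70, had 20.6, 19.2, 18.4 and 22.5 CPM off dox and 14.4 and 15.3 CPM on dox (a log2 fold change of -0.44, SE 0.13, edgeR adjusted p = 0.156). FKBP8, an immunophilin of the mitochondrial outer membrane, had 219, 191, 186 and 183 CPM off dox and 129.7 and 166 CPM on dox (a log2 fold change of -0.40, SE 0.12, edgeR adjusted p = 0.166). The groups did not overlap in either, nor in SERPINH1 and SGTA. SERPINH1, the collagen chaperone that fibroblasts make, had 193, 146, 134 and 132 CPM off dox and 94.95 and 118 CPM on dox (a log2 fold change of -0.51, SE 0.16, edgeR adjusted p = 0.18). SGTA, a cofactor of HSP70 in the delivery of membrane proteins, had 46.6, 38.9, 42.4 and 45.4 CPM off dox and 32.7 and 35.0 CPM on dox (a log2 fold change of -0.36, SE 0.11, edgeR adjusted p = 0.181). FKBP8, SERPINH1 and SGTA were highest in off-dox tumour 1, the tumour with the highest fibroblast sum, which was mostly collagen transcript.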

How the data were processed

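Total RNA of 6 xenograft tumours was extracted with Trizol and made into standard Illumina libraries, per the labels' protocols. The authors deposited whole-number counts per gene. STAR, HTSeq, limma and hg19 are named in the submitters' processing notes. No source used here states their roles or versions, the annotation, the strand setting, the read length or the handling of mouse reads, so host reads can be part of any count and overlapping antisense genes cannot be separated.

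Of 57798 lines, 25 with a repeated identifier were dropped. Library totals were 23855338 to 26885699 counts. Within each group no tumour duplicated another (chi-square per degree of freedom 9.24 or more). edgeR 4.0.16 in R 4.3.3 was run on all 6 tumours with TMM factors, filterByExpr and the quasi-likelihood F test, Benjamini-Hochberg adjustment over 21308 genes and a threshold of 0.05. The common dispersion was 0.0353. SE is the log2 fold change divided by the square root of F. The test was checked on simulated counts. The p-values measure spread between tumours of 1 line.

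Alternatives were other size factors, other filters, DESeq2 1.42.0, limma 3.58.1 voom, robust fitting, a replicate block, a threshold of 0.1, and each tumour left out. Members and lists were chosen with earlier results of these data known. Every member is named. Full values were given for called members, for those whose groups do not overlap, for 14 chosen by role and for up to 6 more by p, and for network genes with the 6 smallest p. HSPA6 was added after its values were seen. Exon lengths and shared 50-base runs came from GENCODE 29 by identifier, on another build, without coordinates.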

Additional observations from a re-analysis of the deposited data

Results flagged for a closer look

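In 5 of the 34 members the highest off-dox tumour lay farther from the other 3 than Dixon's 95% limit for 4 values allows, and each time it was off-dox tumour 1. For normal values chance gives about 1 in 20, and these genes are not independent of each other. The share of all tested genes that this limit flags was not computed, so the 5 are not shown to be particular to chaperones. Tumour 1 was the highest off-dox tumour in 28.2% of tested genes. In off-dox tumour 1 HSPA1A had 67.2 CPM (33.5 to 37.5 CPM in the other 3), HSPA1B 135 CPM (64.2 to 73.9 CPM) and DNAJB1 107 CPM (52.2 to 54.8 CPM). BAG3 had 38.7 CPM (28.8 to 29.9 CPM) and CACYBP 138 CPM (110.4 to 115 CPM). The summed HSPA1 pair, which restates the first 2, had 202 CPM (97.7 to 111 CPM). HSPA6, chosen after its values were seen and not counted above, had 24.3 CPM (3.89 to 6.73 CPM). The fibroblast sum of that tumour was 800.02 CPM, mostly collagen transcript. Its part in these values was not tested.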

How the results depend on the processing

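Other size factors, the stricter filter, limma voom and robust fitting kept HSPB1 as the only called member. Over the alternatives that kept both on-dox tumours, the adjusted p of HSPB1 ran from 5.62e-05 (DESeq2) to 0.125 (replicate block). The stricter filter tested 32 of the 34 members and dropped HSPB8 and CRYAB, so neither could be called there. With no low-count filter 5 members (CRYAB, DNAJB1, HSPA1B, HSPB1 and HSPB8), 4 network genes and 770 of 39242 genes (1.96%) were called, and the summed HSPA1 pair passed at -0.70 (adjusted p = 0.0225). DESeq2 called 3 members (HSP90AA1, HSPB1 and HSPB8), 2 of 64 network genes and 719 of 21308 genes (3.37%). Robust fitting called 1 of 64 network genes and 304 of 21308 genes (1.43%). An adjusted p under 0.1 gave 533 of 21308 genes, 1 of 34 members and 2 of 64 network genes. With a tumour left out, the counts ran from 72 to 562 genes, 0 to 1 member and 0 to 6 network genes (6 without on-dox tumour 2).

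The replicate block left 53 genes and 0 members called (HSPB1 at -1.30, adjusted p = 0.125), and turned BAG3 to -0.046, TRAP1 to -0.0069 and CCT2 to -0.0089. The labels give no pairing, and the deviations of same-numbered tumours correlated at -0.032 and 0.0063.

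With a tumour left out, the log2 fold change crossed 0 in 15 uncalled members, with these ranges: HSPA9 -0.20 to 0.10, HSPA13 -0.15 to 0.18, HSP90AB1 -0.39 to 0.013, HSPE1 -0.66 to 0.011, DNAJA1 -0.38 to 0.051, DNAJA2 -0.20 to 0.091, DNAJB6 -0.019 to 0.074, STIP1 -0.22 to 0.12, AHSA1 -0.27 to 0.13, HSF1 -0.19 to 0.092, HSF2 -0.039 to 0.31, TRAP1 -0.035 to 0.061, ST13 -0.32 to 0.023, TCP1 -0.28 to 0.099 and CCT2 -0.18 to 0.20. The cause was not tested. Counts under 60 per tumour limit HSPB8, and counts of 15 to 39 in off-dox tumours 1 and 3 and in both on-dox tumours limit CRYAB.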
